A study of Mus musculus with 14 samples.

Results

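The genes described here encode the core parts of the inflammasome, the cytosolic complex through which macrophages and monocytes sense microbes and tissue damage. The 8 genes (Nlrp3, Nlrc4, Aim2, Pycard, Casp1, Casp4, Gsdmd and Il18) were listed by name for their known roles, and every array probe whose RefSeq accession maps to them was taken. They are represented by 9 probes and 27 spots on each array, and all 8 passed the filter on dim probes, among 21972 features tested (12966 of them with a gene symbol). Expression was measured on 14 1-colour Agilent arrays in 4 groups of male YARG mice aged 12 to 16 weeks, a strain that carries a fluorescent reporter at the Arg1 locus, so every group, blood included, carries this allele. Arg1+ and Arg1- brain macrophages (4 arrays each) were sorted from brain at day 1 after traumatic brain injury (TBI) made by controlled cortical impact. Post-TBI blood monocytes (3 arrays) came from injured mice at the same time, and normal blood monocytes (3 arrays) from mice without injury. None of the 4 groups is a sham-operated control, brain cells were released with collagenase and a Percoll step while blood cells came from ficoll, and the cells were sorted by the reporter with antibodies to CD45, CD11b and Ly6G, among others. The labels do not say whether replicates came from separate animals, so p-values measure only the spread between these samples, part of which may be technical.

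An inflammasome forms when a sensor meets its trigger. NLRP3 responds to disturbances such as ion efflux, AIM2 binds cytosolic DNA, and NLRC4 is engaged by NAIP proteins that have bound bacterial flagellin or secretion-system subunits. The adaptor ASC, encoded by Pycard, links sensors to caspase-1, the product of Casp1, which matures the cytokines IL-1β and IL-18 and cleaves gasdermin D. Cleaved gasdermin D forms pores through which cytokines leave and by which the cell can die, and the product of mouse Casp4, known as caspase-11, cleaves gasdermin D after binding cytosolic lipopolysaccharide. Most of these proteins are held inactive until triggered, so RNA levels do not show whether a complex formed. The arrays measure RNA and not the amount of protein.

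Levels are given as log2 of the processed signal relative to the 75th percentile of the same array, so 0 stands for that percentile, and the lowest possible value is -4.32. They are set side by side only within a gene, since probes differ in brightness for the same amount of RNA. The 75th percentile itself ranged from 119.4 to 418.5 signal units, 50.4% to 68.69% of probes were well above background per array, and no spot was saturated. Arg1, the gene behind the sort, stood at 6.2, 6.21 and 6.82 in Arg1+ macrophages (the spot of replicate 2 was an outlier and is missing), at 2.12 to 4.20 in Arg1- macrophages, and at -3.90 to -3.13 in blood. Of the 7 monocyte and macrophage markers measured (Cd68 was not tested), none was below background throughout a group, with summed linear levels of 160 to 208, 158 to 198, 198 to 273 and 102 to 227 times the 75th percentile in Arg1+, Arg1-, post-TBI and normal samples. The 14 arrays lie on 4 slides by the slide number in the file headers. Slides 1 to 3 hold all 4 groups, and slide 4 holds Arg1- replicate 3 and Arg1+ replicate 2. With bulk samples, fewer cells of a type and less RNA per cell cannot be told apart.

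The proximal promoters of 4 members are shown because these genes carry the main contrast below: Casp1, Casp4 and Nlrc4 were lower in brain macrophages than in blood monocytes, and Pycard was not. For Nlrc4 in Arg1- macrophages against post-TBI blood, the arrays overlapped and the call was fragile, as described below. Casp1 and Casp4 are neighbouring genes on chromosome 9, with Casp12 on the far side of Casp4. Each sequence is the 250 bases before the annotated RefSeq start on GRCm38.p6, written 5′ to 3′ on the gene's strand, from chr9:5298267-5298516 (plus strand) for Casp1, chr9:5308599-5308848 (plus) for Casp4, chr17:74459109-74459358 (minus) for Nlrc4 and chr7:127993868-127994117 (minus) for Pycard. Capitals mark matches, on either strand, to 5 short motifs that were chosen after the expression data had been seen.
Casp1: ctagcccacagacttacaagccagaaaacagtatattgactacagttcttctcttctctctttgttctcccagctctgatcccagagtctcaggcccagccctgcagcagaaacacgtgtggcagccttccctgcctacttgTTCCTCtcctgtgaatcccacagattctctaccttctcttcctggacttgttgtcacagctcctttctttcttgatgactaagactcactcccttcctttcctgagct
Casp4: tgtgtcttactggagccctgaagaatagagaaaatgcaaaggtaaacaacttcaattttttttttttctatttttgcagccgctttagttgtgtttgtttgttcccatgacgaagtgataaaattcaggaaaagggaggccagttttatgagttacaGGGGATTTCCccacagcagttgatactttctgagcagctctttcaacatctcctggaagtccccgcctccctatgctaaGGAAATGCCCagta
Nlrc4: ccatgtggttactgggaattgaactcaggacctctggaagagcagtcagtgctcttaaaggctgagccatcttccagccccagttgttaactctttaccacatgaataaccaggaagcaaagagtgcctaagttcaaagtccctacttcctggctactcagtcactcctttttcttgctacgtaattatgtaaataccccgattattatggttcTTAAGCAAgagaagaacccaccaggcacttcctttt
Pycard: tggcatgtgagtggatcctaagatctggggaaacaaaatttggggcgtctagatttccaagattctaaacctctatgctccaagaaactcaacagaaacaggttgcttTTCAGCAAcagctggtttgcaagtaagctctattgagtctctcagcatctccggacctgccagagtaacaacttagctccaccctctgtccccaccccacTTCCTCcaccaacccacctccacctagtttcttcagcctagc
The Casp4 window holds 2 matches to the NF-kB letters (GGG, any 2 bases, then TTTCC), at 93 to 84 and at 14 to 5 bases before the start, whereas 1.41% of the 32851 promoters of this length in the reference hold any. Casp1 holds 1 match to the PU.1 core GAGGAA, read on the minus strand and present in 23.3% of promoters. Nlrc4 holds 1 match to the C/EBP letters TTGCNNAA, present in 9.56% of promoters, and Pycard holds 1 C/EBP and 1 PU.1 match. No match to the interferon-response letters (TTTC, any 2 bases, then TTTC; 2.98% of promoters) or to the GAS letters TTCNNNGAA (7.02%) lies in these 4 windows. A match says only that these letters are present. Gsdmd is named without a promoter.

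Among the sensors, Nlrp3 was well above background on every array and had the smallest difference of the 8 genes between Arg1+ macrophages and blood. Its levels were 4.08, 3.92, 4.09 and 4.12 in Arg1+ macrophages, 5.08, 3.92, 4.45 and 4.57 in Arg1- macrophages, 3.78, 3.42 and 4.23 in post-TBI monocytes, and 3.74, 3.57 and 4.14 in normal monocytes. The 4 groups overlap throughout, and Arg1- replicate 1 is the highest array. The order of means was Arg1- (4.50 ± 0.48, SD, n = 4), Arg1+ (4.05 ± 0.09, n = 4), normal (3.82 ± 0.29, n = 3) and post-TBI (3.81 ± 0.41, n = 3), and among neighbours in this order no difference passed the test.

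Nlrc4, the sensor that depends on NAIP proteins, had its highest means in blood. It read 1.98, 1.56 and 0.74 in post-TBI monocytes and 1.63, 1.91 and 1.70 in normal monocytes, against 0.81, 0.44, 0.96 and 0.57 in Arg1- and -0.57, 0.37, -0.10 and -0.02 in Arg1+ macrophages. Every Arg1+ array lay below every Arg1- array, and every brain array lay below normal blood, but post-TBI replicate 4 fell within the Arg1- range. The means were 1.75 ± 0.14 (SD, n = 3) in normal blood, 1.43 ± 0.63 (n = 3) in post-TBI blood, 0.70 ± 0.24 (n = 4) in Arg1- and -0.08 ± 0.39 (n = 4) in Arg1+ macrophages, and of the neighbours in this order the post-TBI and Arg1- groups differed past the test.

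Aim2, the DNA sensor, was close to the limit of the arrays. It was not well above background on any of the 8 brain arrays, where it read -4.24 and 3 values at the floor in Arg1+ macrophages and -3.92, -4.16 and 2 values at the floor in Arg1- macrophages. It was well above background on 2 of 3 arrays of each blood group, at -3.36, -3.03 and -3.44 in post-TBI and -2.76, -3.28 and -4.10 in normal monocytes. It passed the filter on dim probes only through these 4 blood arrays, so a lower value in brain follows from how it entered the data. Only folds, with no test, are given for it between brain and blood, and it is left out of the counts of those comparisons until the closing section.

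Pycard, which encodes the adaptor shared by these sensors, was highest in Arg1+ macrophages. Its levels were 3.78, 4.01, 4.71 and 4.14 in Arg1+ and 3.14, 3.66, 3.45 and 4.00 in Arg1- macrophages, 3.34, 3.46 and 3.02 in post-TBI monocytes, and 3.17, 3.13 and 2.85 in normal monocytes. Every Arg1+ array exceeded every blood array, whereas Arg1- arrays overlapped both neighbours. The means fell in the order Arg1+ (4.16 ± 0.40), Arg1- (3.56 ± 0.36), post-TBI (3.27 ± 0.23) and normal (3.05 ± 0.18), with no neighbouring pair past the test. A second probe for Pycard gave the same directions.

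The 2 inflammatory caspases separated brain from blood without overlap. Against post-TBI blood, the arrays did not overlap for 39.7% of all features in Arg1+ and 37.0% in Arg1- macrophages. The share for both brain groups against both blood groups was not computed. Casp1 read 1.57, 1.74, 1.86 and 1.58 in Arg1+ and 1.71, 1.86, 2.01 and 1.94 in Arg1- macrophages, against 3.74, 3.17 and 2.72 in post-TBI and 3.62, 3.77 and 3.23 in normal monocytes. The highest brain array (2.01) lay below the lowest blood array (2.72). The spread within a brain group was small (SD 0.14 and 0.13, n = 4 each) and larger in blood (0.51 and 0.28, n = 3 each).

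Casp4 read -0.59, -0.93, -0.58 and -1.02 in Arg1+ macrophages and a narrow -0.41, -0.44, -0.38 and -0.41 in Arg1- macrophages. In blood it read 0.64, 0.64 and 1.26 after TBI and 0.88, 1.34 and 0.50 in normal mice. All brain arrays lay below all blood arrays, and all Arg1+ arrays below all Arg1- arrays, the latter by a mean of 0.37 that did not pass the test (adjusted p = 0.387).

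Gsdmd, which encodes the pore protein, and Il18, the cytokine precursor, also read lower in brain. Gsdmd stood at 3.28, 3.34, 3.28 and 3.24 in Arg1+ and 3.21, 3.42, 3.29 and 3.60 in Arg1- macrophages, and at 4.26, 4.09 and 3.89 in post-TBI and 4.36, 4.09 and 4.37 in normal monocytes. Brain and blood did not overlap, while the brain groups overlapped each other, as did the blood groups. The shares of all features given for the caspases belong beside this separation too. Its probe is spotted 10 times on each array, and the spots of an array had a coefficient of variation of 2.46% to 9.06%.

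Il18 was dim. It read -2.94, -2.92, -3.70 and -3.12 in Arg1+ macrophages, with 2 of the 4 arrays well above background, and -2.63, -3.0, -2.79 and -2.85 in Arg1- macrophages. The blood arrays read -1.42, -1.78 and -2.24 after TBI and -1.70, -1.02 and -2.72 in normal mice. All brain arrays lay below the post-TBI arrays, but normal replicate 4 fell within the Arg1- range. Its probe is also spotted 10 times, with a coefficient of variation of 4.47% to 16.88% between spots.

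**Figure D1:**
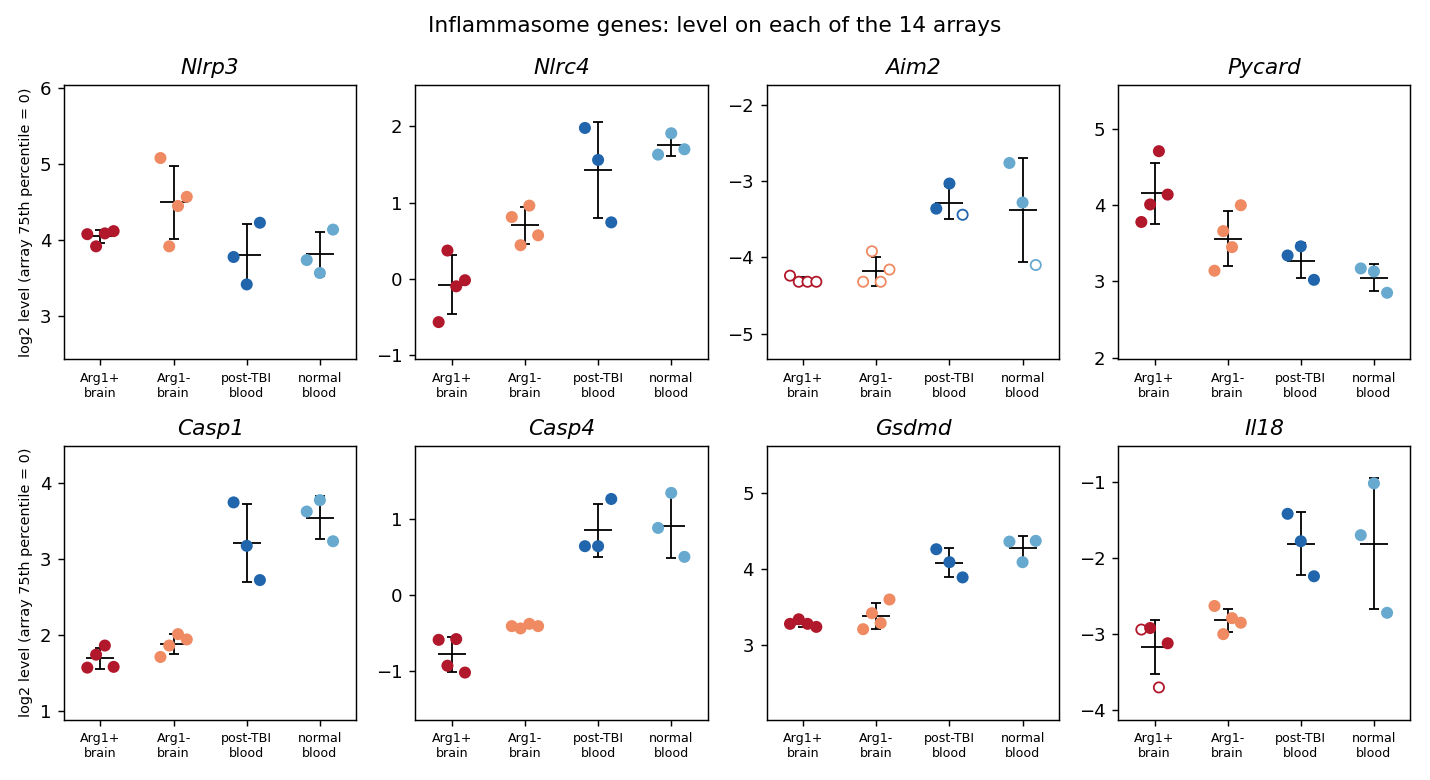
Level of each inflammasome gene on the 14 arrays (vertical axis, log2 of the signal relative to the array's 75th percentile; horizontal axis, the 4 groups), 1 point per array, filled where well above background, with bars at the group mean and whiskers of 1 SD. The vertical axes all span the same number of log2 units but start at different levels. Casp1, Casp4 and Gsdmd separate brain from blood without overlap, and Nlrp3 overlaps in all 4 groups. Against post-TBI blood, 39.7% of all features did not overlap for Arg1+ and 37.0% for Arg1- macrophages.

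Arg1+ and Arg1- brain macrophages were compared to ask whether the reporter-defined populations differ in these genes. None of the 8 members passed the test (adjusted p under 0.05 by limma), where 5.04% of all features did, and 2 of 8 had an unadjusted p under 0.05, where 17.5% of all features did. The members nearest the threshold were Nlrc4 and Pycard, in opposite directions. Nlrc4 was lower in Arg1+ macrophages by a log2 difference of -0.78 ± 0.25 (SE; 95% interval -1.30 to -0.25, adjusted p = 0.0926). Pycard differed by 0.60 ± 0.21 (interval 0.14 to 1.06, adjusted p = 0.137). Aim2 was not well above background in either population, and differences for the other members ranged from -0.45 (Nlrp3, interval -0.94 to 0.04) to -0.10 (Gsdmd, interval -0.39 to 0.19). The arrays of the 2 populations did not overlap for 2 members, Nlrc4 and Casp4, where 14.9% of all features did not overlap. The median difference over the members was -0.27, against 0 over all features.

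Within slides, Nlrc4 was lower in Arg1+ macrophages on all 4 slides, by -1.14, -0.91, -0.46 and -0.59 on slides 1 to 4. Casp4 was also lower on all 4 slides (-0.18, -0.17, -0.58 and -0.55), and Pycard was higher on 3, with -0.22, 1.57, 0.48 and 0.57. With slide as a block the adjusted p of Nlrc4 was 0.0579. Leaving out post-TBI replicate 4, an array that enters only the shared estimate of spread, brought it to 0.0243, the only setting tried that called a member here. The neutrophil markers moved with this comparison: 8 of 11 measured were lower in Arg1+ macrophages, their summed level was 7.44 to 16.3 against 32.8 to 143.0 in Arg1- macrophages, and Elane was not above background in the Arg1+ group. Of the dendritic cell markers 5 of 6 were lower as well (sum 0.834 to 1.44 against 5.06 to 8.19), and Kmo was not above background in Arg1+ macrophages. Eosinophil markers were lower for 3 of 5 genes (sum 0.311 to 0.423 against 1.39 to 3.07), with Ccr3 not above background in Arg1+ macrophages. Platelet markers summed to 6.44 to 12.3 against 1.32 to 2.41, with 1 of 4 called higher and Gp9 not above background in Arg1+ macrophages. NK cell markers had 1 of 6 lower (sum 0.320 to 0.429 against 0.868 to 2.14), B cell markers 1 of 6 higher (sum 2.34 to 2.86 against 1.82 to 2.17), and microglial and T cell markers none called. The part of these cells in the differences of the inflammasome genes was not tested.

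Blood monocytes after TBI were compared with those of uninjured mice. None of the 8 members passed the test, none had an unadjusted p under 0.05, and none separated the groups without overlap, where 0.15%, 6.49% and 9.26% of all features did. The largest differences were Casp1 at -0.33 ± 0.22 (interval -0.81 to 0.14, adjusted p = 0.917) and Nlrc4 at -0.32 ± 0.29 (interval -0.93 to 0.29, adjusted p = 0.997). Nlrp3 (-0.01, interval -0.57 to 0.56) and Il18 (0.00, interval -0.79 to 0.79) had nearly equal means. With 3 arrays in each group these intervals still allow changes of more than 0.5 log2 units in at least 1 direction for every member, so the result is a lack of detection at this sample size. The median over the members was -0.03, against 0 over all features.

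Arg1+ macrophages were compared with post-TBI monocytes, both taken at day 1 after injury. The labels do not pair brain and blood samples by mouse. The caspases, the pore protein, Il18 and the sensor Nlrc4 were lower in brain, Pycard was higher, and Nlrp3 did not pass the test. Of the 7 members other than Aim2, 5 were lower, where 20.0% of all features were called lower, and 1 was higher, where 19.9% were called higher. The arrays of the groups did not overlap for 6 of these 7, against 39.7% of all features. The median difference was -1.36 over the 7 members and -0.026 over all features.

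The largest difference was that of Casp4, -1.62 ± 0.22 or 3.08-fold lower (adjusted p = 2.88e-05). Casp1 was 2.87-fold lower (-1.52 ± 0.21, adjusted p = 3.44e-05) and Nlrc4 2.84-fold lower (-1.51 ± 0.27, adjusted p = 0.000363). Gsdmd was lower by a smaller and well-measured amount, 1.74-fold (-0.80 ± 0.15, adjusted p = 0.00049). Il18 was 2.56-fold lower (-1.36 ± 0.35, adjusted p = 0.00567). Aim2, not well above background on any Arg1+ array, read 2.03-fold lower. The rule for an "at least" fold gave 1.79, which is no firm limit. On post-TBI replicate 4 the Aim2 probe read -3.44 and was still not well above background. Pycard was 1.85-fold higher (0.89 ± 0.23, adjusted p = 0.00633), and its second probe gave 0.96 ± 0.257. Nlrp3 differed by 0.24 ± 0.25 (interval -0.28 to 0.77, adjusted p = 0.486). Raising the floor of the signal ratio from 0.05 to 0.2 removed the differences of Aim2 and the call of Il18 (adjusted p = 0.173), the dimmest members.

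The direction held within each slide for 6 of the 7 members other than Aim2. Casp4 differed by -1.23, -1.83 and -1.66 on slides 1, 2 and 3, and Casp1 by -1.60, -0.86 and -2.16. Pycard was higher by 0.32, 1.70 and 0.80. Nlrp3 was the exception, with 0.66, -0.14 and 0.34. These 6 calls remained with slide as a block.

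Arg1- macrophages were set against the same post-TBI arrays. Of the 7 members other than Aim2, 5 were lower (16.4% of all features) and 1 was higher (17.0%), here Nlrp3, while Pycard did not pass. Neither Nlrp3 nor Pycard differed past the test between Arg1+ and Arg1- macrophages (adjusted p = 0.341 and 0.137), and each had the same sign against blood in both. The arrays did not overlap for 4 of the 7, against 37.0% of all features. The medians were -0.73 over the 7 members and -0.022 over all features. Both brain comparisons share the post-TBI arrays, so they are not separate evidence.

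Casp1 was 2.52-fold lower in Arg1- macrophages (-1.33 ± 0.21, adjusted p = 0.000173), Casp4 2.39-fold (-1.26 ± 0.22, adjusted p = 0.00042) and Gsdmd 1.62-fold (-0.70 ± 0.15, adjusted p = 0.00184). These calls held in all 27 alternatives tried. Aim2 read 1.87-fold lower, with no Arg1- array and 2 of 3 post-TBI arrays well above background. Here the rule for an "at least" fold returned the fitted fold itself, so 1.87 is no lower limit. A floor of 0.2 set this difference to 0. Il18 was 2.01-fold lower (-1.0 ± 0.35, adjusted p = 0.0366). Nlrc4 was 1.66-fold lower (-0.73 ± 0.27, adjusted p = 0.0475) and Nlrp3 1.62-fold higher (0.69 ± 0.25, adjusted p = 0.0426), both with overlapping arrays. Pycard differed by 0.29 ± 0.23 (interval -0.20 to 0.78, adjusted p = 0.383). Its second probe gave a larger difference, 0.548 ± 0.257, so the size for Pycard here depends on the probe.

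The last calls are fragile. Of the 27 alternatives, 14 lost the call of Nlrp3, 16 that of Nlrc4 and 8 that of Il18. These totals include changes of processing besides the left-out arrays named next. The call of Nlrp3 was lost on leaving out any of 10 of the 14 arrays (Arg1- replicates 1, 3 and 4, all Arg1+ replicates, normal replicate 2, and post-TBI replicates 1 and 3), with adjusted p between 0.0511 and 0.205. That of Nlrc4 was lost without any of 10 arrays (Arg1- replicates 1, 2 and 4, Arg1+ replicates 3 and 4, all normal replicates, and post-TBI replicates 1 and 3), with adjusted p between 0.0577 and 0.223, and the difference itself was -0.454 without post-TBI replicate 1. Il18 lost its call without any Arg1- replicate or without post-TBI replicates 1 or 3 (0.0506 to 0.131). Without post-TBI replicate 3 the called members were Casp1, Casp4 and Gsdmd. Within slides, Nlrc4 gave -0.99, 0.07 and -1.54, and Nlrp3 1.15, 0.84 and 0.14 on slides 1 to 3.

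**Figure D2:**
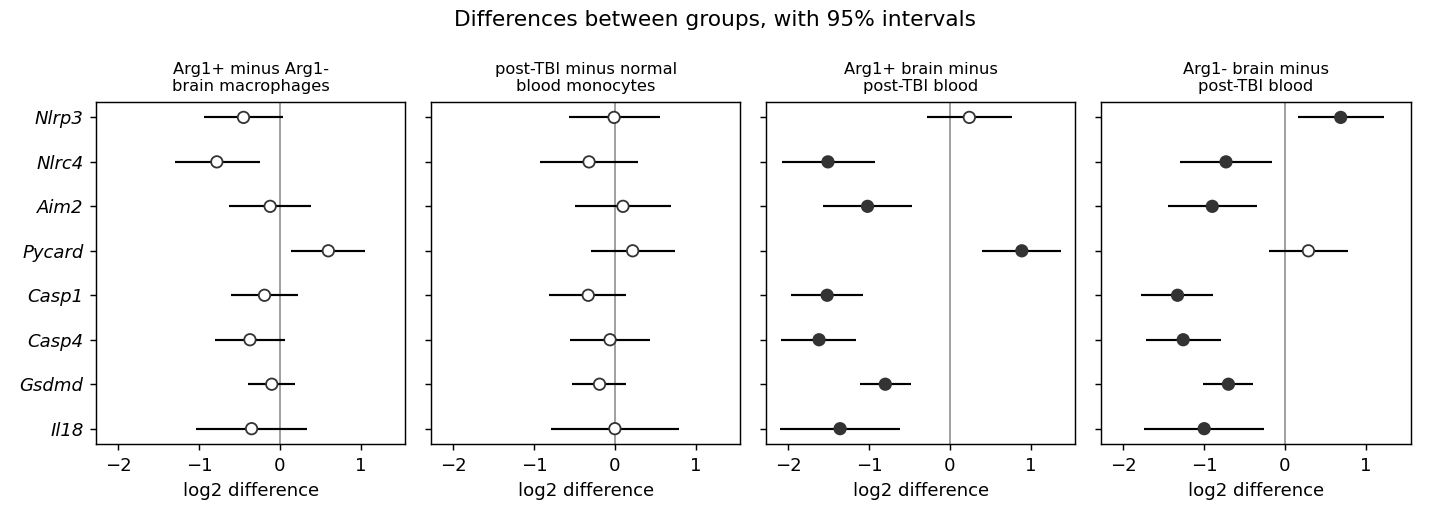
Fitted log2 difference (horizontal axis) of each inflammasome gene in the 4 comparisons, with 95% intervals from limma; filled points passed an adjusted p of 0.05. No member passed in the comparisons within brain or within blood. Of the 7 members other than Aim2, 6 passed in each comparison of brain with post-TBI blood. Nlrp3 did not pass for Arg1+ and Pycard did not pass for Arg1- macrophages. Of all features 20.0% were called lower and 19.9% higher for Arg1+, and 16.4% and 17.0% for Arg1- macrophages. Aim2 is drawn filled there too, but its lower value in brain follows from how it passed the filter on dim probes.

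**Figure D3:**
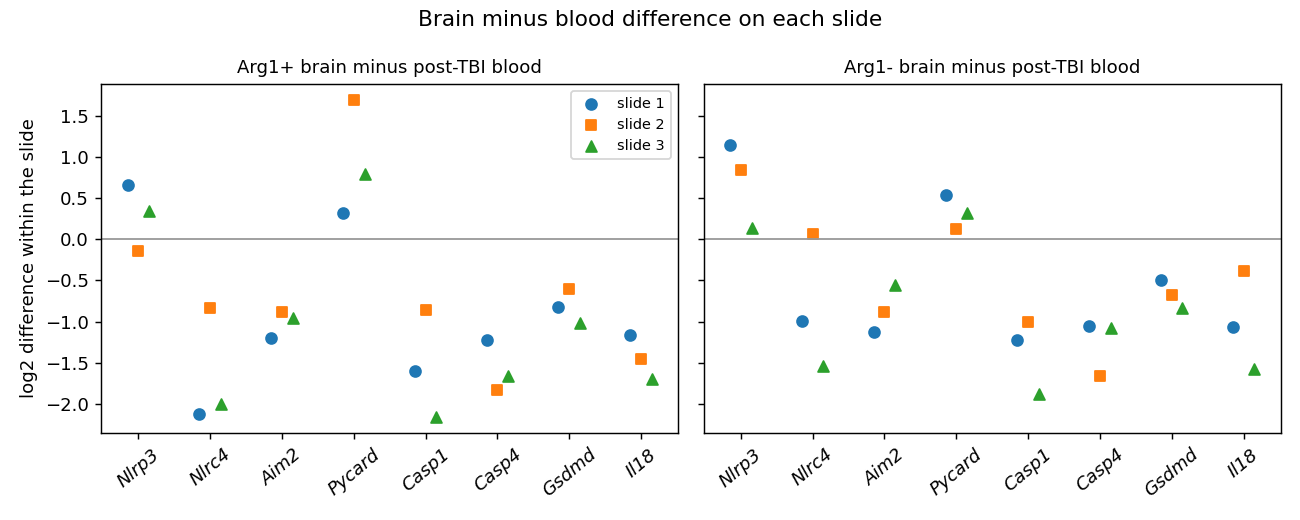
Brain minus post-TBI blood difference of each gene (vertical axis, log2 units) on each of the 3 slides that hold both groups, 1 array of each group per slide. Casp1, Casp4, Gsdmd and Il18 lie below 0 on every slide in both panels, and Pycard above it. The points of Aim2 lie below 0 too, which follows from how it passed the filter on dim probes.

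Other cell types differ between brain and blood preparations as well. Microglial markers were higher in brain, with 7 of 8 called for Arg1+ and 6 of 8 for Arg1- macrophages, and a summed level of 37.8 to 62.2 and 28.7 to 40.9 against 9.64 to 11.5 in post-TBI blood, where Siglech was not above background. Markers of B cells were lower in brain (5 of 6 and 6 of 6 called; sums of 2.34 to 2.86 and 1.82 to 2.17 against 6.23 to 6.35), with Ms4a1 not above background in either brain group and Pax5 not in Arg1- macrophages. Eosinophil markers summed to 0.311 to 0.423 in Arg1+ and 1.39 to 3.07 in Arg1- macrophages against 8.80 to 13.4 in post-TBI blood, with 3 of 5 and 1 of 5 called lower. Neutrophil markers were higher in Arg1- macrophages than in post-TBI blood for 8 of 11 genes, whose sum in that blood group ran from 11 to 88.0, while in Arg1+ macrophages 2 were higher and 2 lower. Dendritic cell markers were lower in Arg1+ macrophages for 5 of 6 genes (sum in post-TBI blood 3.09 to 3.82) and higher for 1 of 6 in Arg1- macrophages. T cell markers were lower for 3 of 5 genes in each brain group (sums of 0.549 to 1.19 and 0.721 to 1.45 against 1.29 to 1.65), and platelet markers for 3 of 4 and 4 of 4 (sums of 6.44 to 12.3 and 1.32 to 2.41 against 7.72 to 15.4). NK cell markers were lower for 2 of 6 and 1 of 6. The part of these cells in the inflammasome differences was not tested.

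Both brain groups were also set against normal blood, to place their levels. In Arg1+ macrophages 5 of the 7 members other than Aim2 were lower (20.7% of all features) and Pycard was higher (19.7%), by 1.11 ± 0.23 (adjusted p = 0.00123). In Arg1- macrophages 5 of the 7 were lower (16.1%) and Nlrp3 was higher (16.2%), by 0.69 ± 0.25 (adjusted p = 0.0455). Among these called members in Arg1- macrophages, the arrays overlapped for Nlrp3 and for Il18 (-1.0 ± 0.35, adjusted p = 0.0377). They also overlapped for Pycard, which did not pass (adjusted p = 0.106). The call of Nlrp3 was lost in 17 of 27 alternatives, among them leaving out Arg1- replicates 1, 3 or 4, any Arg1+ replicate, normal replicates 2 or 3 or post-TBI replicate 1 (adjusted p 0.0524 to 0.173). That of Il18 was lost in 9, among them leaving out any Arg1- replicate or normal replicates 2 or 3 (0.0520 to 0.226), and its difference was -0.604 without normal replicate 3. Casp1, Casp4 and Gsdmd were lower in both brain groups than in both blood groups in all 27 alternatives. No member differed past the test within the brain pair or within the blood pair, so the order within each pair is not settled. Nlrp3 in Arg1+ and Pycard in Arg1- macrophages passed against neither blood group. The separation into brain and blood thus holds for the called members only.

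The other genes of the pathway were taken as a list of 46, of which 39 were measured. In the comparison of Arg1+ with Arg1- macrophages 1 was higher and 6 were lower, 17.9% of the list where 5.04% of all features were called. The largest difference was that of Il1r2, the decoy receptor for IL-1, at -2.96 ± 0.40 (adjusted p = 0.000507). Il1b, the IL-1β precursor, read 2.01, 0.67, 0.90 and 0.81 in Arg1+ and 2.75, 1.79, 2.35 and 2.57 in Arg1- macrophages. Its difference was -1.27 ± 0.29 (adjusted p = 0.0178) with 1 Arg1+ array inside the Arg1- range, and was lower within each of the 4 slides (-0.56, -1.85, -0.99 and -1.68). The call of Il1b was lost on leaving out Arg1- replicates 1, 3 or 4 or Arg1+ replicates 2, 3 or 4 (adjusted p 0.0515 to 0.0639), without the filter on dim probes (0.0638) and in a fit of these 2 groups alone (0.0625).

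Of the sensors and their helpers, Mefv, which encodes pyrin, was lower in Arg1+ macrophages by -0.95 ± 0.22 (adjusted p = 0.0188), and Naip6, a flagellin receptor, by -0.57 ± 0.13 (adjusted p = 0.0213). Serpinb1a, an inhibitor of neutrophil serine proteases, differed by -1.57 ± 0.36 (adjusted p = 0.0184), and Il18rap, the accessory chain of the IL-18 receptor, by -1.38 ± 0.37 (adjusted p = 0.0419). Ninj1, which ruptures the plasma membrane late in pyroptosis, was the gene that was higher, by 1.01 ± 0.24 (adjusted p = 0.0243). The neutrophil and dendritic cell marker values given above belong beside these differences too. No gene of the list was called between post-TBI and normal blood, where Il1b differed by 0.38 ± 0.33 (interval -0.32 to 1.09, adjusted p = 0.987).

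Between Arg1+ macrophages and post-TBI monocytes 9 of the 39 measured genes were higher (23.1%, against 19.9% of all features) and 13 lower (33.3%, against 20.0%). Between Arg1- macrophages and post-TBI monocytes 7 were higher and 7 lower (17.9% each, against 17.0% and 16.4% of all features), so the shares called there are near those of all features. IL-1 family genes were among the largest increases: Il1a, the IL-1α precursor, was higher by 4.31 ± 0.31 in Arg1+ (adjusted p = 5.27e-08) and 3.68 ± 0.31 in Arg1- macrophages (adjusted p = 5.29e-07). Il1rn, the IL-1 receptor antagonist, was higher by 3.75 ± 0.22 and 3.34 ± 0.22. Il1b itself differed by -0.38 ± 0.31 in Arg1+ (adjusted p = 0.375) and by 0.89 ± 0.31 in Arg1- macrophages (adjusted p = 0.0378). Without Arg1+ replicate 1 the first of these was -0.681 (adjusted p = 0.0475), and the call in Arg1- macrophages was lost without Arg1- replicates 1, 3 or 4 or post-TBI replicate 3 (0.0646 to 0.165). Il1r2 was higher in Arg1- macrophages by 3.23 ± 0.44 (adjusted p = 4.49e-05), and in Arg1+ macrophages its difference was 0.27 ± 0.44 (adjusted p = 0.673). Il18bp, which neutralises IL-18, was higher in Arg1+ macrophages by 0.79 ± 0.24 (adjusted p = 0.0175), with 0.53 ± 0.24 in Arg1- macrophages (adjusted p = 0.11).

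Of the 6 other sensors and NAIPs measured, 4 were lower and none higher in Arg1+ macrophages. In Arg1- macrophages 2 were lower and none higher. Of all features 20.0% were lower and 19.9% higher for Arg1+, and 16.4% and 17.0% for Arg1- macrophages. Naip5, which binds flagellin, differed by -1.74 ± 0.24 and -1.15 ± 0.24 (adjusted p = 3.34e-05 and 0.00162), and Naip6 by -1.34 ± 0.14 and -0.77 ± 0.14 (adjusted p = 3.03e-06 and 0.000703). The other 2 NAIPs measured did not pass: Naip1 gave -0.34 and -0.51 (adjusted p = 0.26 and 0.105), and Naip2 -0.15 and 0.24 (adjusted p = 0.589 and 0.371). Probes of the closely related Naip genes can take up each other's RNA. Nlrp1a, another sensor, was lower in Arg1+ macrophages by -1.40 ± 0.30 (adjusted p = 0.00164), with -0.53 ± 0.30 in Arg1- macrophages (adjusted p = 0.203).

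Triggers and regulators moved both ways, 3 higher and 6 lower of 17 in Arg1+ and 1 higher and 4 lower in Arg1- macrophages. The shares of all features were 19.9% higher and 20.0% lower for Arg1+, and 17.0% and 16.4% for Arg1- macrophages. Cd14, which passes lipopolysaccharide to its receptor, was higher by 2.05 ± 0.31 and 1.61 ± 0.31 (adjusted p = 9.89e-05 and 0.00103). Gbp2, a guanylate-binding protein that exposes bacterial lipopolysaccharide, was lower by -1.77 ± 0.40 and -1.14 ± 0.40 (adjusted p = 0.00263 and 0.0402). Serpinb1a was lower in Arg1+ macrophages (-2.12 ± 0.39, adjusted p = 0.000454), with -0.55 ± 0.39 in Arg1- macrophages (adjusted p = 0.319). Panx1, a membrane channel, was lower in both, by -1.16 ± 0.20 and -1.23 ± 0.20 (adjusted p = 0.000229 and 0.000207).

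Among other executors of cell death, 3 of 8 were higher and 3 lower in Arg1+ macrophages. In Arg1- macrophages 2 were higher and 1 lower. Beside these counts, 19.9% of all features were higher and 20.0% lower for Arg1+, and 17.0% and 16.4% for Arg1- macrophages. Ninj1 was higher by 2.66 ± 0.26 and 1.64 ± 0.26 (adjusted p = 1.31e-06 and 0.000204), and Ripk3, the kinase of necroptosis, by 0.99 ± 0.24 and 0.94 ± 0.24 (adjusted p = 0.00356 and 0.00647).

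**Figure D4:**
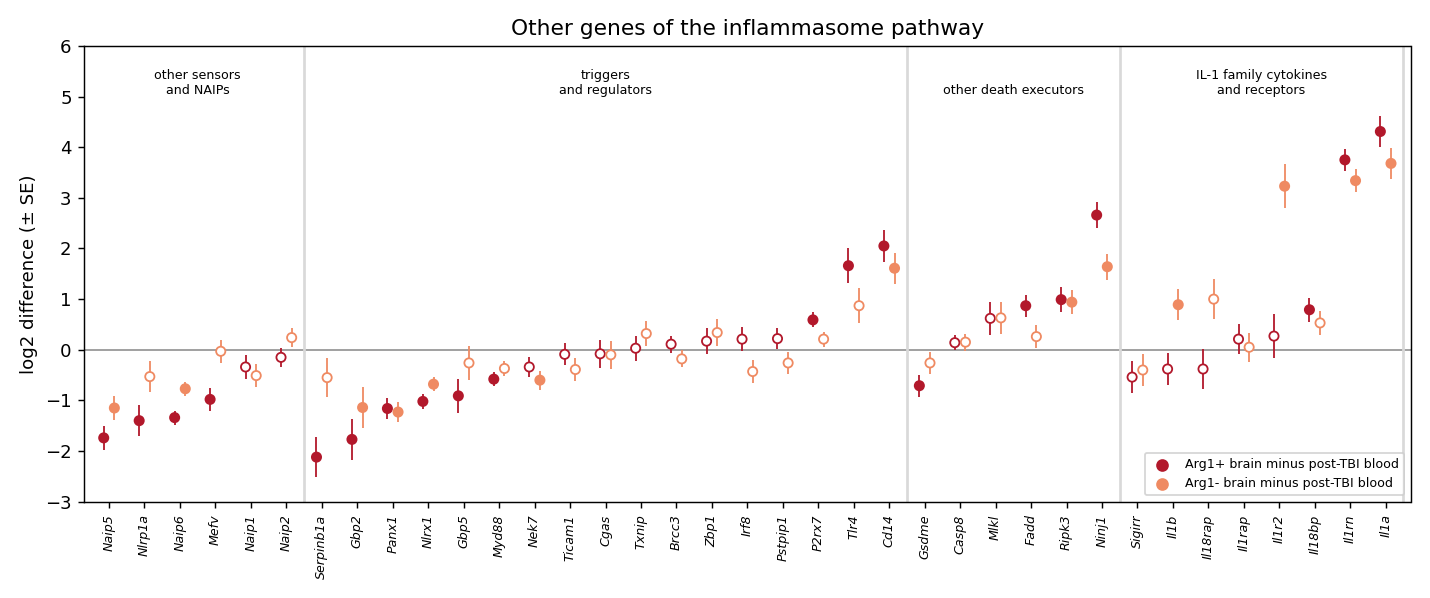
Fitted log2 difference from post-TBI blood monocytes (vertical axis, with SE) of 37 of the 39 other pathway genes measured, grouped by role; filled points passed an adjusted p of 0.05. Il1a, Il1rn and Ninj1 are high in both brain groups, Il1r2 is high in Arg1- macrophages, and Naip5, Naip6 and Panx1 are low in both.

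The members did not share a single profile over the 14 arrays. Likeness was measured as the root-mean-square difference, in log2 units, between profiles centred on their own mean, over 12463 genes with a level on every array. Casp1 was nearest, among the other members, to Nlrc4 (0.355) and Casp4 to Casp1 (0.364). Nlrp3 and Pycard were nearest each other but at 0.641, more than either gene's own SD over the arrays (0.43 and 0.52). Genes that vary little lie near many others by this measure.

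Across all genes, the closest profiles were those of Casp2 (0.178) and Fam111a (0.191) for Casp1, and Arhgap9 (0.225) and Fam111a (0.235) for Nlrc4. Gsdmd was closest to Arhgap4 (0.143) and Git2 (0.145), and Casp4 to Mycbp2 (0.218) and Limd1 (0.226). Pycard was closest to Psmb3 (0.145) and Sec61b (0.153), and Nlrp3 to 1700029F12Rik (0.172) and Socs7 (0.206). Il18 was closest to Aoah (0.31) and Usf1 (0.323). No likeness is given for Aim2, whose profile depends on where the floor is set. These points share arrays and scaling, so the distances only describe this series.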

How the data were processed

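RNA of sorted cells was amplified, labelled with Cy3 and hybridised to 14 1-colour Agilent arrays. The deposited spot intensity values were extracted with Feature Extraction 10.7.3.1, per the file headers, which already subtracts background. The deposited flags for outlier spots and for spots well above background were used as given. The authors also deposited a table of normalized log2 values, used only as an alternative; limma is named per the submitters' processing notes, with no version. Its values rank as the median spot signal does in every array (Spearman 1.0), its medians are 6.161 to 6.188, and how it was scaled is not given in the sources used here.

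Processed signals were divided by the 75th percentile of the array's non-control spots, raised to 0.05 where lower, and put on the log2 scale. Outlier spots were set missing and spots of a probe averaged. The array holds 41174 probes. A probe was dropped if any group kept under 2 usable values for it (464 probes) or if the scanner software called it well above background less than 3 times in 14 (13098), which left 27612. The brightest kept probe stood for each symbol, giving 21972 features. Symbols came from RefSeq accessions (24844 probes, 17178 symbols). Promoters are RefSeq's, on GRCm38.p6.

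A fit on the 4 groups was made with limma 3.58.1 in R 4.3.3 (lmFit, then eBayes with trend = TRUE; the residual degrees of freedom were 10). Tests were two-sided, with Benjamini-Hochberg adjustment over all features of a comparison and a threshold of 0.05. An "at least" fold sets the measured group's mean against, per array of the other group, the higher of its own signal and the lowest signal among probes well above background. It is no firm limit, since a probe can go undetected above that lowest signal. The number of arrays limits the precision. Named were the 8 members, Il1b, Arg1, up to 3 called genes of each pathway sublist with the largest difference per comparison, the 2 genes with the profile most like each member's (not given for Aim2), and the cell type markers. The results of 2 pathway genes are not reported here by name and count only in the totals. Il1r2 in Arg1+ macrophages, and Naip1 and Naip2, against post-TBI blood were named after their values were seen. Members and lists were chosen with earlier results of these data known. The code was tested on simulated data. The alternatives are listed with their effect in the closing section.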

Additional observations from a re-analysis of the deposited data

Results flagged for a closer look

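A single Arg1+ array stood apart from the other 3 of its group for 2 genes, by the gap to its nearest neighbour relative to the group's range, and it was replicate 1 in both. Il1b read 2.01 there, against 0.67 to 0.90 in the other Arg1+ arrays. Aim2 read -4.24 there, with the other 3 arrays at the floor of -4.32, and was not well above background on any of the 4, so that gap has no measured size. Chance marks about 1 in 20 groups in this way.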

How the results depend on the processing

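Each result was recomputed under up to 27 alternatives, 14 of which leave out 1 array each. Casp1, Casp4, Gsdmd, Nlrc4 and Pycard in Arg1+ macrophages and Casp1, Casp4 and Gsdmd in Arg1- macrophages, against post-TBI blood, kept their direction and call in all of them. Normexp on the median signal, used because the mean signal is not in the files here, was chosen after seeing the data. Called features between Arg1+ and Arg1- macrophages numbered 1108, and 602 to 1790 when 1 array was left out. Those between post-TBI and normal blood numbered 33, with 2 to 60 on leaving out 1 array, 15 with normexp, 20 in the authors' deposited log2 values, 2 with the replicate block and 0 in a fit of only the 2 groups. In that 2-group limma fit, where fewer samples estimate the spread, 0 passed the adjusted threshold, and the cause was not tested. Counts of called members here include Aim2, whose lower value in brain follows from how it passed the filter on dim probes. Without it the main count was 6 of 7 in each comparison of brain with blood, with the shares of all features given above. Called members between Arg1+ and Arg1- macrophages numbered 0 to 1 on leaving out 1 array. For Arg1- macrophages against post-TBI blood they numbered 7, with 4 without the filter on dim probes, 3 with the floor at 0.2 and 3 to 7 on leaving out 1 array. Against normal blood they numbered 7, with 4 at that floor, 4 in a fit of only the 2 groups and 4 to 7 on leaving out 1 array; the cause was not tested. A floor of 0.2 sets the Aim2 differences to 0, and Aim2 was not tested when 7 arrays had to be above background.

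The differences that changed sign were all uncalled, with main values from -0.32 (Nlrc4 between the blood groups) to 0.238 (Nlrp3 between Arg1+ macrophages and normal blood). Il18 between post-TBI and normal blood was 0.003, and became -0.027 with quantile normalization, -0.044 with normexp, -0.017 in the authors' values, -0.13 with the floor at 0.2 and -0.076 with the replicate block, and ran from -0.451 to 0.4 on leaving out 1 array. In the same comparison, leaving out 1 array gave -0.218 to 0.19 for Nlrp3, -0.596 to 0.022 for Nlrc4, -0.261 to 0.411 for Aim2 and -0.262 to 0.157 for Casp4. Between Arg1+ macrophages and normal blood, Nlrp3 became -0.039 with quantile normalization and -0.039 with normexp. Il1b there became -0.104 with quantile normalization, -0.082 with normexp, -0.104 in the authors' values, -0.168 with the replicate block and -0.008 with outlier spots kept, and ran from -0.298 to 0.178 on leaving out 1 array. The cause of these changes was not tested.

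Replicate numbers are shared between groups, but samples of the same number did not as a rule deviate together (r from -0.464 to 0.401, over 0.1 in 5 of 18 pairs). Most samples of the same number lie on different slides, so these values cannot tell whether the numbers pair the samples. With the replicate block 831 features were called between Arg1+ and Arg1- macrophages. With that block 6 of the 8 members, a total that counts Aim2, were called between Arg1- macrophages and each blood group. Samples of the same slide did deviate together (r from 0.041 to 0.591, over 0.1 in 18 of 19 pairs), and with slide as a block 1502 features were called between Arg1+ and Arg1- macrophages. Signal over background limits Aim2 and Il18 most.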
